A study of Saccharomyces cerevisiae with 15 samples.

Results

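The genes described here encode 10 transcription factors that set the stress and growth programmes of budding yeast: HSF1, MSN2, MSN4, YAP1, SKN7, GCN4, HAP4, SFP1, IFH1 and FHL1. They were chosen by name, and their identifiers picked out 10 of the 6692 genes counted in each of 15 cultures, 3 per condition. Curcumin cultures (200 µM of the turmeric polyphenol) and CPTH2 cultures (400 µM of a compound made to block Gcn5, a histone acetyltransferase) were of the strain with the empty plasmid pL220. The study describes Curcumin as reported to inhibit p300/CBP acetyltransferases and to act on other targets too. Its target in these cultures was not tested. The scFv-58F cultures carried pL220 with an HA-tagged intrabody (an antibody domain made inside the cell) against histone H3 acetylated on lysine 9, and the scFv-645 cultures pL220 with an HA-tagged intrabody against mouse neuroligin 2. The DMSO cultures carried the empty pL220 and received the solvent alone. All 15 cultures were of the mat-a strain L40, whose genotype label lists his{delta}200, trp1-901, ade2, a mutant leu2, Gal4 and the lexA-operator reporters LYS2::(lexAop)4-HIS3 and URA3::(lexAop)8-lacZ, and all received 0.4% DMSO for 1 h in SD-L medium. How many transformants each strain stands for, and which promoter drives the intrabodies, is not given in the sources used here. The compounds were thus tested at different doses, and the intrabodies against cells that made none.

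Hsf1 activates chaperone genes when proteins misfold, and Msn2 and its paralogue Msn4 drive the general stress response after they enter the nucleus. Yap1 and Skn7 share targets in the defence against oxidants. Gcn4 activates amino acid biosynthesis and is controlled chiefly through translation of its mRNA, and Hap4 is the regulated subunit that lets the Hap2-Hap3-Hap5 complex activate respiratory genes. Sfp1, Fhl1 and the Fhl1 coactivator Ifh1 promote the making of ribosomes in growing cells. Several of these proteins are governed by their location or modification, so a transcript level is only a measure of the gene's RNA.

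In the sacCer3 (R64) coordinates of the files, each interval below spans the coding sequence. HSF1 (YGL073W) lies on chromosome VII at 368753 to 371254 on the plus strand, MSN2 (YMR037C) on XIII at 344403 to 346517 on the minus strand, and MSN4 (YKL062W) on XI at 323228 to 325120 on the plus strand. YAP1 (YML007W) lies on XIII at 253848 to 255800 and SKN7 (YHR206W) on VIII at 512732 to 514600, both on the plus strand. GCN4 (YEL009C) lies on V at 138918 to 139763 on the minus strand and HAP4 (YKL109W) on XI at 232227 to 233891 on the plus strand. SFP1 (YLR403W) lies on XII at 925568 to 927619 on the plus strand, while IFH1 (YLR223C) on XII at 582233 to 585490 and FHL1 (YPR104C) on XVI at 733623 to 736433 are on the minus strand. HSF1 shares 422 bases (16.9% of its length) with the opposite-strand YGL074C and YGL072C, and IFH1 shares 4 bases with YLR222C-A. The counting ignored strand, so reads from these overlaps cannot be told apart. The other 8 members overlap no annotated gene.

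The 250 bases before and 50 bases after each start codon were searched on both strands for sites of the members themselves. The stress response element bound by Msn2 and Msn4 (AGGGG) was in 1 of the 10 windows, that of YAP1, against 21.7% of all 5985 windows of this kind. Yap1 sites (TTACTAA, the form TTAGTAA or the form TTAGTCA) were in 2 of 10, SKN7 and GCN4, against 10.9% of all. The CCAAT box of the Hap complex was in 5 of 10 (HSF1, where it lies in the coding sequence, YAP1, GCN4, HAP4 and FHL1) against 43.3%. The Gcn4 site (TGACTCA) was in 1 of 10, inside the HSF1 coding sequence, against 2.74%, and a heat shock element was in 0 of 10 against 0.785%. The windows below show a site before the start codon for each of YAP1, SKN7, GCN4 and HAP4. They read 5′ to 3′ on the gene's strand, with the matching letters in capitals. Not shown are further CCAAT boxes before the start codons of YAP1 (129 bases), GCN4 (188, 103 and 41) and FHL1 (178).
YAP1, stress response element, chrXIII:253733-253762, plus strand: ttttttcctgagCCCCTggttgacttgtgc
SKN7, Yap1 site, chrVIII:512482-512511, plus strand: agttTTACTAAcattacacagatatccctg
GCN4, Yap1 site, chrV:139804-139833, minus strand: aatcattattaTTACTAAagttttgtttac
HAP4, CCAAT box, chrXI:232122-232151, plus strand: ccacacatatttATTGGtctcctagtacat
The YAP1 element begins 103 bases before the start codon, the SKN7 site 246, the GCN4 site 59 and the HAP4 box 93. A match of letters is a description of the sequence, not evidence of binding, and windows counted from the start codon can include transcribed leader.

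Reads on genes ranged from 9062694 to 18878167 per culture, and the members had between 143 (IFH1) and 13700 (GCN4) counts in a culture, so that all 10 passed the filter on low counts. No 2 cultures had identical counts. Levels below are CPM (counts scaled to a common library total) after TMM scaling over the 15 cultures, and comparisons are edgeR quasi-likelihood fits over 6588 genes, whose Benjamini-Hochberg adjusted p-values are printed as adjusted p. A gene is said to rise or fall where its adjusted p was below 0.05 and its change at least 1.5-fold. Of the strain markers checked, TRP1 had 0 reads in every culture, while LEU2, HIS3 and ADE2 had reads in all of them. Before TMM scaling LEU2 stood at 3941 to 15303 CPM (median 10317), HIS3 at 265 to 702 CPM and ADE2 at 36.3 to 88.3 CPM. The source of these reads was not tested. The 5 a-cell genes checked (MFA1, MFA2, STE2, STE6 and BAR1) had medians of 29.2 to 85.6 CPM before TMM scaling, and the 4 alpha-cell genes medians of 0.814 (MF(ALPHA)1), 1.97 (MF(ALPHA)2), 10.9 (STE3) and 25.2 (SAG1). SAG1, at 22.3 to 57.1 CPM, overlapped the range of all 5 a-cell genes, the lowest of which was BAR1 at 15.8 to 75.9 CPM. MF(ALPHA)1 reached 28.1 CPM and STE3 17.4 CPM, both above the lowest values of BAR1 and MFA2 (17.3 CPM). Curcumin cultures differed most among themselves: the median standard deviation of log2 CPM within the group was 0.42 over the members (0.40 over all genes), against 0.15 (0.15) in CPTH2, 0.07 (0.08) in scFv-58F, 0.17 (0.12) in scFv-645 and 0.08 (0.08) in DMSO cultures.

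With Curcumin 7 of the 10 transcripts rose and 0 fell: YAP1, IFH1, MSN2, SKN7, FHL1, SFP1 and HSF1, in order of their fold change. With CPTH2 3 rose, HAP4, HSF1 and YAP1. With scFv-58F 1 fell, HAP4, and with scFv-645 0 were called. Of all genes, 27.9% rose and 24.7% fell with Curcumin, 14.1% rose and 16.9% fell with CPTH2, 1.97% rose and 5.43% fell with scFv-58F, and 1.32% rose and 2.70% fell with scFv-645. With the adjusted p alone and no fold threshold, 7 of 10 members passed in Curcumin against 55.6% of all genes, 6 of 10 in CPTH2 against 64.0%, 8 of 10 in scFv-58F against 49.0%, and 4 of 10 in scFv-645 against 22.9%. The median log2 fold change of the members was 1.18 with Curcumin (all genes 0.03), 0.28 with CPTH2 (−0.03), −0.35 with scFv-58F (0.00) and −0.16 with scFv-645 (0.00). Scaling by library size alone moved the median of all genes with Curcumin to 0.38, with 2521 genes rising and 1052 falling in place of 1838 and 1629, and that of the members to 1.53. The 4 comparisons share the same 3 DMSO cultures and are not independent of each other. In bulk RNA, fewer cells with a transcript and less of it per cell cannot be told apart.

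**Figure D1:**
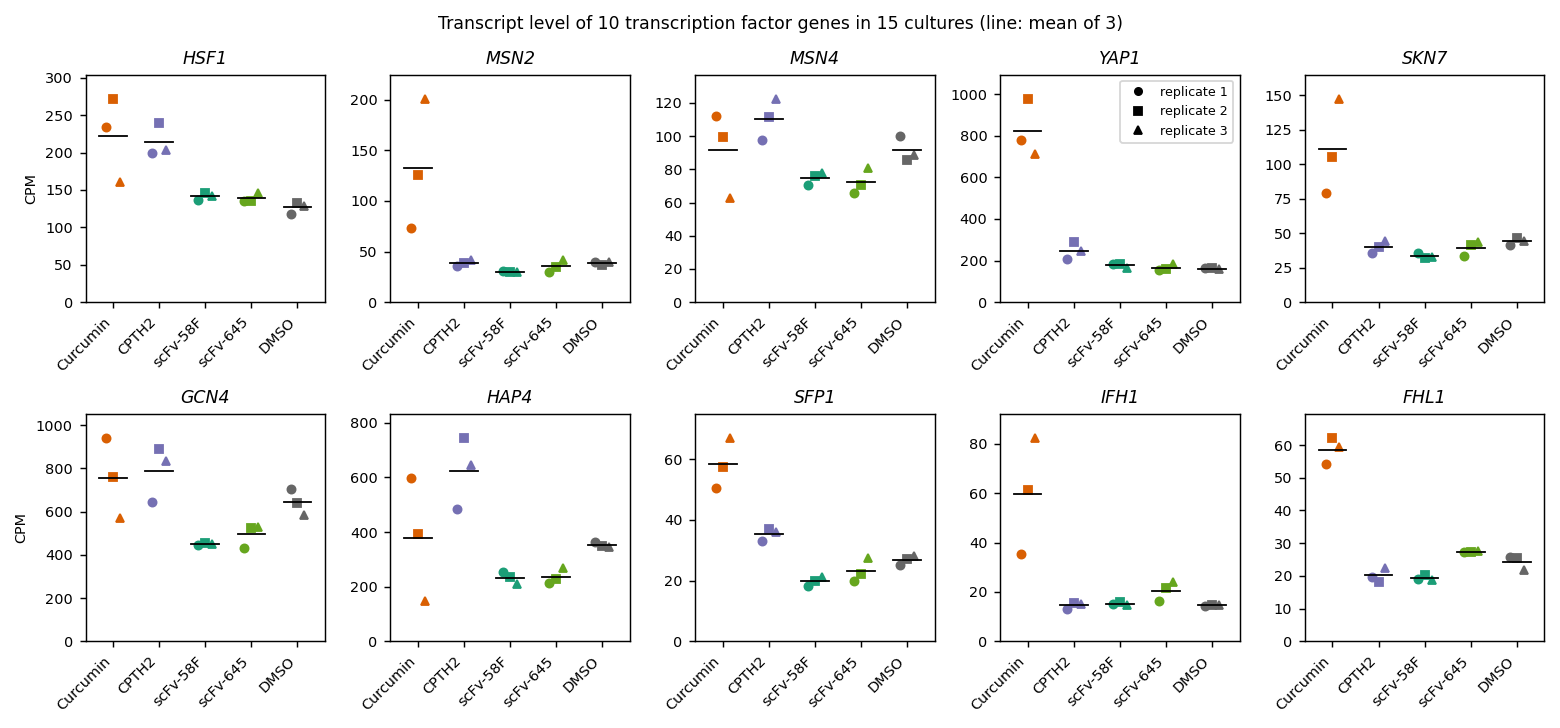
CPM (linear axis from 0) of each of the 10 genes in the 15 cultures, in columns for Curcumin, CPTH2, scFv-58F, scFv-645 and DMSO, with a symbol per replicate and a line at the mean of 3. All 3 Curcumin cultures lie above all other cultures for MSN2, YAP1, SKN7, SFP1, IFH1 and FHL1, while the Curcumin cultures for HAP4 spread between 149 and 597.

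HSF1 transcripts were higher with either compound. They stood at 234, 272 and 160.0 CPM in Curcumin cultures (replicates 1, 2 and 3) and at 199.9, 239.9 and 203 CPM in CPTH2 cultures, against 118, 133 and 129 CPM in DMSO cultures. Neither treated group overlapped the DMSO cultures. The log2 fold change was 0.80 ± 0.23 (SE, adjusted p = 0.0250) with Curcumin and 0.76 ± 0.10 (adjusted p = 0.000178) with CPTH2, and Curcumin over CPTH2 differed by 0.05 ± 0.25 (95% interval −0.65 to 0.76, adjusted p = 0.867). The Curcumin call was lost without DMSO replicate 1, 2 or 3 (adjusted p = 0.102, 0.0791 and 0.0845) and without Curcumin replicate 2 (adjusted p = 0.0698). With the intrabodies HSF1 read 137, 146 and 143 CPM in scFv-58F and 135, 135 and 146 CPM in scFv-645 cultures, all 6 above the highest DMSO culture, with log2 fold changes of 0.16 ± 0.06 (adjusted p = 0.0401) and 0.12 ± 0.07 (adjusted p = 0.249), both under 1.5-fold. YGL072C, which overlaps HSF1, averaged 38.8 CPM in Curcumin, 34.1 in CPTH2, 17.8 in scFv-58F, 18.2 in scFv-645 and 19.3 in DMSO cultures. YGL074C, which also overlaps HSF1, averaged 12.9, 8.11, 10.3, 10.2 and 7.64 CPM in the same order. The part of either gene in the HSF1 values was not tested.

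Each condition had genes activated by Hsf1 that rose, BTN2 and HSP82 among them in all 4. Of 18 chaperone and cochaperone genes taken as its targets, 14 rose and 1 fell with Curcumin (median log2 fold change 1.51, all genes 0.03), 14 rose and 0 fell with CPTH2 (1.51, all genes −0.03), 9 rose with scFv-58F (0.61) and 12 with scFv-645 (0.66), the medians of all genes in the intrabody strains being 0.00 and 0.00. Genes at large rose in 27.9% with Curcumin, 14.1% with CPTH2, 1.97% with scFv-58F and 1.32% with scFv-645. BTN2, a factor in protein sorting and aggregate handling, rose by 4.09 in Curcumin, 2.55 in CPTH2, 2.21 in scFv-58F and 3.09 in scFv-645 cultures on the log2 scale. HSP82, which encodes an Hsp90 chaperone, rose by 3.86, 2.54, 1.19 and 1.54 in the same order. In the intrabody strains the 2 counts depend on the fold threshold and model: a test against 1.5-fold (glmTreat) left 4 genes in each, and a model of all 5 groups left 5 in scFv-645. Between scFv-58F and scFv-645, BTN2 was lower in scFv-58F by a log2 fold change of −0.88 ± 0.15 (adjusted p = 0.00268), a call lost in the model of all 5 groups and under glmTreat, and the other 17 targets were not called. Without scFv-645 replicate 1, 3 targets were called lower in scFv-58F, and with library size alone 2.

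MSN2 and MSN4 parted with Curcumin. MSN2 stood at 73.0, 125 and 201 CPM in Curcumin cultures, against 39.8, 36.8 and 39.6 CPM in DMSO cultures, with no overlap and a log2 fold change of 1.77 ± 0.36 (adjusted p = 0.00667). MSN4 stood at 112, 99.6 and 62.6 CPM in Curcumin cultures, against 100.2, 85.5 and 88.7 CPM in DMSO cultures, which overlap, with a log2 fold change of −0.01 ± 0.24 (95% interval −0.67 to 0.64, adjusted p = 0.963). Curcumin replicate 3 was at once the highest culture for MSN2 and the lowest for MSN4. With CPTH2 the pair had 35.6, 39.0 and 41.6 CPM (MSN2) and 97.5, 112 and 122 CPM (MSN4), with log2 fold changes of 0.00 ± 0.09 (adjusted p = 0.982) and 0.27 ± 0.10 (adjusted p = 0.0381), the last below 1.5-fold. In scFv-58F cultures MSN2 read 30.6, 29.7 and 29.9 CPM and MSN4 70.4, 75.9 and 78.0 CPM, all below their DMSO cultures, with log2 fold changes of −0.36 ± 0.06 (adjusted p = 0.000597) and −0.29 ± 0.07 (adjusted p = 0.00397). In scFv-645 cultures MSN2 read 29.8, 34.7 and 41.4 CPM and overlapped DMSO (−0.14 ± 0.10, adjusted p = 0.343), while MSN4 read 65.9, 70.6 and 80.6 CPM and did not (−0.34 ± 0.09, adjusted p = 0.0165). None of these intrabody differences reached 1.5-fold.

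Within a culture, the ratio of MSN2 to MSN4 per kilobase of coding sequence was 0.583, 1.13 and 2.87 in Curcumin replicates 1, 2 and 3. It was 0.304 to 0.327 in CPTH2, 0.344 to 0.389 in scFv-58F, 0.406 to 0.460 in scFv-645 and 0.355 to 0.399 in DMSO cultures. MSN2 was thus the less abundant paralogue in all cultures but Curcumin replicates 2 and 3.

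**Figure D2:**
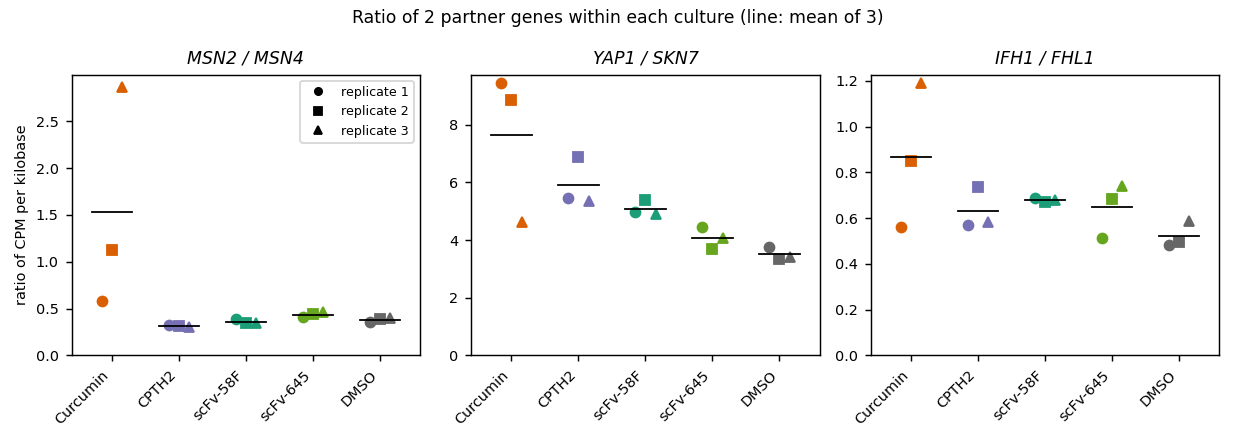
Ratio of CPM per kilobase (linear axes from 0) for MSN2 over MSN4, YAP1 over SKN7 and IFH1 over FHL1 in each culture, with a symbol per replicate and a line at the mean of 3. The 3 Curcumin values of MSN2 over MSN4 (0.583, 1.13 and 2.87) lie above those of all other cultures and are far apart from each other.

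The general stress genes rose with CPTH2 and for the most part not with Curcumin. Of 18 targets of Msn2 and Msn4, 2 rose and 3 fell with Curcumin (median −0.13, all genes 0.03), whereas 17 rose and 0 fell with CPTH2 (1.55, all genes −0.03). Genes at large rose in 27.9% and fell in 24.7% with Curcumin, and in 14.1% and 16.9% with CPTH2. MSN2 rose with Curcumin and read as in DMSO with CPTH2. MSN4 changed by −0.01 with Curcumin and 0.27 with CPTH2, and by −0.27 ± 0.25 (adjusted p = 0.397) between the compounds. Whether either transcript bears on these genes was not tested. The sign of the Curcumin median depends on scaling: with library size alone it was 0.21 (all genes 0.38), with 5 rising and 1 falling, and without Curcumin replicate 2 it was 0.03. The number falling was 6 without Curcumin replicate 3, 1 without DMSO replicate 1 or 2, and 0 without DMSO replicate 3 or Curcumin replicate 2, and the number rising was 1 without DMSO replicate 1, 2 or 3. TKL2, a transketolase gene, rose by 1.66 ± 0.34 (adjusted p = 0.00656) with Curcumin, while the glycogen phosphorylase gene GPH1 changed by −1.40 ± 0.42 (adjusted p = 0.0280). With CPTH2 the largest increases were those of HSP12, a membrane-protecting small heat shock protein gene (2.26 ± 0.19), the hexokinase gene HXK1 (2.16 ± 0.17) and ALD3, an aldehyde dehydrogenase gene (1.91 ± 0.10). Directly compared, 12 of the 18 were lower with Curcumin than with CPTH2 and 0 were higher, with a median of −1.53. In scFv-58F cultures 3 rose (TFS1, HOR7 and HXK1, by 0.69, 0.64 and 0.62, median of the list 0.39, 1 rising with library size alone or in the model of all 5 groups), and in scFv-645 cultures 0 rose and 0 fell (median 0.00). Without a fold threshold 15 were higher and 1 lower with scFv-58F (49.0% of all genes passing in either direction), and 1 was lower with scFv-645 (22.9%).

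YAP1 had the largest change of any member. It stood at 779.9, 977 and 715 CPM in Curcumin cultures, against 162, 163 and 158 CPM in DMSO cultures, a log2 fold change of 2.34 ± 0.22 (5.06-fold, adjusted p = 0.000703) that exceeded those of 94.9% of all genes. In CPTH2 cultures it stood at 205, 289 and 246 CPM, again with no overlap, and the log2 fold change was 0.61 ± 0.12 (adjusted p = 0.00202). That call lies close to the 1.5-fold threshold and fell below it, at 0.49, without CPTH2 replicate 2. Curcumin exceeded CPTH2 by 1.74 ± 0.27 (adjusted p = 0.00228). In scFv-58F cultures YAP1 read 185, 181 and 166 CPM, above the DMSO cultures by 0.14 ± 0.06 (adjusted p = 0.0624), and in scFv-645 cultures 154, 159.7 and 184 CPM, on both sides of them (0.03 ± 0.08, adjusted p = 0.809).

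SKN7 rose with Curcumin but not with CPTH2. It stood at 79.1, 106 and 147 CPM in Curcumin cultures and at 35.9, 40.1 and 44.0 CPM in CPTH2 cultures, against 41.5, 46.7 and 44.1 CPM in DMSO cultures. Curcumin gave a log2 fold change of 1.31 ± 0.25 (adjusted p = 0.00519) and CPTH2 one of −0.15 ± 0.09 (95% interval −0.41 to 0.12, adjusted p = 0.197), and the direct difference of Curcumin over CPTH2 was 1.47 ± 0.26 (adjusted p = 0.00348). In scFv-58F cultures SKN7 read 35.7, 32.1 and 32.5 CPM, below all DMSO cultures by −0.41 ± 0.07 (adjusted p = 0.000640) and short of 1.5-fold. In scFv-645 cultures it read 33.2, 41.5 and 43.3 CPM (−0.18 ± 0.10, adjusted p = 0.194). The YAP1 to SKN7 ratio per kilobase was 9.43, 8.85 and 4.64 in Curcumin, 5.47, 6.89 and 5.36 in CPTH2, 4.96, 5.40 and 4.89 in scFv-58F, 4.44, 3.68 and 4.07 in scFv-645, and 3.74, 3.35 and 3.43 in DMSO cultures. Curcumin replicate 3, which had the lowest YAP1 and the highest SKN7 level of its group, lay below all CPTH2 and scFv-58F ratios and above those of scFv-645 and DMSO.

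Of 16 Yap1 targets, 8 rose and 0 fell with Curcumin (median 0.98, all genes 0.03) and 7 rose and 1 fell with CPTH2 (0.23, all genes −0.03). Genes at large rose in 27.9% and fell in 24.7% with Curcumin, and in 14.1% and 16.9% with CPTH2. OYE3, an NADPH oxidoreductase (old yellow enzyme) gene, rose by 6.25 ± 0.34 (adjusted p = 0.000600) with Curcumin and by 3.20 ± 0.27 (adjusted p = 2.46e-05) with CPTH2. The glutathione transferase gene GTT2 rose by 2.94 and 2.34 in these conditions. FLR1, a multidrug exporter gene, rose by 3.36 with Curcumin. Directly compared, 7 of the 16 were higher with Curcumin and 0 lower (4 higher without CPTH2 replicate 1). With scFv-58F only FRM2 of the list was called (−0.92 ± 0.23, adjusted p = 0.00746), and leaving out a culture gave between 0 (without DMSO replicate 2) and 3 genes that fell. With scFv-645 OYE3, GPX2 and GSH1 had log2 fold changes of −0.72, −0.65 and −0.63 and were called, but 0 were without DMSO replicate 2 or in the model of all 5 groups.

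GCN4 had the highest level per kilobase of the members in every group, and it was not called in any comparison. It stood at 939, 760.2 and 569.8 CPM in Curcumin cultures and at 646, 889.7 and 833 CPM in CPTH2 cultures, against 704, 639.9 and 584 CPM in DMSO cultures. Both treated groups overlapped DMSO, with log2 fold changes of 0.22 ± 0.25 (95% interval −0.47 to 0.91, adjusted p = 0.472) and 0.30 ± 0.14 (−0.09 to 0.68, adjusted p = 0.0867). The intrabody strains lay wholly below DMSO. Their values were 445, 456 and 449.5 CPM in scFv-58F cultures (−0.51 ± 0.07, adjusted p = 0.000102) and 432, 524 and 530.1 CPM in scFv-645 cultures (−0.38 ± 0.11, adjusted p = 0.0235), both short of 1.5-fold.

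Of 18 amino acid biosynthesis genes taken as Gcn4 targets, 1 rose and 6 fell with Curcumin (median −0.43, all genes 0.03) and 3 rose and 6 fell with CPTH2 (−0.42, all genes −0.03). Among all genes 27.9% rose and 24.7% fell with Curcumin, and 14.1% rose and 16.9% fell with CPTH2. The number that fell with Curcumin was 2 without DMSO replicate 1, without DMSO replicate 2 or without Curcumin replicate 2, 3 without DMSO replicate 3, and 10 without Curcumin replicate 1, and with library size alone 3 rose and 3 fell. With CPTH2, 5 rose and 4 fell without CPTH2 replicate 1, and 1 rose and 5 fell without CPTH2 replicate 2. The lysine synthesis gene LYS9 changed most, with log2 fold changes of −4.55 ± 0.36 (adjusted p = 0.000612) with Curcumin and −1.36 ± 0.24 (adjusted p = 0.000954) with CPTH2, and LYS1, of the same pathway, had −1.61 and −1.05. In scFv-58F cultures 0 were called (median −0.04, all genes 0.00), and the list is not reported here for scFv-645.

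HAP4 rose with CPTH2 and fell with scFv-58F. It stood at 485, 744 and 645 CPM in CPTH2 cultures, above all DMSO cultures (364, 349 and 347 CPM), with a log2 fold change of 0.82 ± 0.15 (adjusted p = 0.00116). In a model of all 5 groups this call was lost (adjusted p = 0.0716). Curcumin cultures spread around the DMSO level at 597, 394 and 149 CPM, with a within-group standard deviation of 1.03 on the log2 scale, the widest of any member, and a log2 fold change of 0.09 ± 0.45 (95% interval −1.17 to 1.35, adjusted p = 0.881). Curcumin over CPTH2 was −0.72 ± 0.47 (adjusted p = 0.237). In the intrabody strains HAP4 was below all DMSO cultures, at 254, 235 and 211 CPM in scFv-58F and 213, 229 and 270.3 CPM in scFv-645. The log2 fold change was −0.60 ± 0.07 (adjusted p = 5.02e-05) with scFv-58F, which is a call, and −0.58 ± 0.09 (adjusted p = 0.00181) with scFv-645, which falls just short of the 1.5-fold threshold. The difference between the strains was −0.03 ± 0.10 (95% interval −0.30 to 0.24, adjusted p = 0.866). The scFv-58F call was lost without scFv-58F replicate 3 (log2 fold change −0.54) and in the model of all 5 groups (adjusted p = 0.360), and HAP4 was called in scFv-645 without DMSO replicate 2 (−0.59), without DMSO replicate 3 (−0.59) or without scFv-645 replicate 3 (−0.68).

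Respiratory genes under the Hap complex rose in CPTH2 and not in Curcumin cultures. Of 20 such genes, 14 rose and 0 fell with CPTH2 (median 1.03, all genes −0.03), led by KGD1 (1.41 ± 0.12), ATP1 (1.32 ± 0.16) and KGD2 (1.31 ± 0.13), which encode subunits of ketoglutarate dehydrogenase and ATP synthase. With Curcumin 0 rose and 6 fell (−0.73, all genes 0.03), among them the cytochrome oxidase gene COX6 (−1.64 ± 0.26). The shares over all genes were 27.9% rising and 24.7% falling with Curcumin, and 14.1% rising and 16.9% falling with CPTH2. The number that fell with Curcumin was 11 without Curcumin replicate 1, 10 without Curcumin replicate 3 and 3 without DMSO replicate 3. With library size alone 3 rose and 4 fell, and in the model of all 5 groups 1 rose and 11 fell. Directly compared, 16 of the 20 were lower with Curcumin than with CPTH2. In scFv-58F cultures, where HAP4 fell, 1 of the 20 rose (the cytochrome c gene CYC1, 0.62 ± 0.10, not called without DMSO replicate 2 or scFv-58F replicate 1) and 0 fell (median 0.28), and in scFv-645 cultures 0 were called (median −0.05). Without a fold threshold 15 were higher with scFv-58F (49.0% of all genes passing in either direction) and 1 was lower with scFv-645 (22.9%). Between the strains 11 were then higher in scFv-58F (21.5%).

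All 3 ribosome regulators rose with Curcumin. SFP1 stood at 50.7, 57.6 and 66.9 CPM in Curcumin cultures and at 33.2, 37.0 and 36.1 CPM in CPTH2 cultures, against 25.3, 27.2 and 28.2 CPM in DMSO cultures. The 3 groups did not overlap, and the log2 fold change was 1.10 ± 0.16 (adjusted p = 0.00214) with Curcumin and 0.40 ± 0.09 (adjusted p = 0.00322) with CPTH2, which is under 1.5-fold. Curcumin exceeded CPTH2 by 0.73 ± 0.18 (adjusted p = 0.0132), a call lost without CPTH2 replicate 1, 2 or 3 (adjusted p = 0.0661, 0.0521 and 0.0556). In scFv-58F cultures SFP1 read 18.3, 19.7 and 21.2 CPM, below all DMSO cultures (−0.45 ± 0.08, adjusted p = 0.000772) and short of 1.5-fold, and in scFv-645 cultures 19.8, 22.1 and 27.5 CPM (−0.23 ± 0.11, adjusted p = 0.147).

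IFH1, the coactivator, stood at 35.4, 61.1 and 82.2 CPM in Curcumin cultures, against 14.4, 14.6 and 14.8 CPM in DMSO cultures, a log2 fold change of 2.01 ± 0.31 (4.04-fold, adjusted p = 0.00255). FHL1, which holds it at promoters, stood at 54.2, 62.1 and 59.5 CPM in Curcumin cultures, against 25.9, 25.4 and 21.8 CPM in DMSO cultures, a log2 fold change of 1.25 ± 0.15 (adjusted p = 0.00110). Curcumin over CPTH2 gave 2.03 ± 0.32 for IFH1 (adjusted p = 0.00235) and 1.55 ± 0.18 for FHL1 (adjusted p = 0.00110). In CPTH2 cultures themselves IFH1 read 12.97, 15.6 and 15.2 CPM (−0.01 ± 0.10, adjusted p = 0.955) and FHL1 19.7, 18.3 and 22.5 CPM (−0.28 ± 0.11, adjusted p = 0.0492), so neither reached 1.5-fold against DMSO.

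FHL1 and IFH1 were the members with an adjusted p below 0.05 between the intrabody strains. FHL1 read 18.9, 20.4 and 18.8 CPM in scFv-58F cultures, against 27.3, 27.3 and 27.7 CPM in scFv-645 cultures, a log2 fold change of −0.50 ± 0.08 (adjusted p = 0.00157). IFH1 read 15.1, 15.8 and 14.8 CPM in scFv-58F cultures, against 16.2, 21.7 and 23.8 CPM in scFv-645 cultures (−0.43 ± 0.13, adjusted p = 0.0377). Neither pair of groups overlapped, and both differences were under 1.5-fold, so that 0 of the 10 members were called between the strains (0.668% of all genes were higher and 2.13% lower in scFv-58F). By edgeR, 3 members had an unadjusted p below 0.05 in this comparison and 2 an adjusted p below 0.05, against 21.5% of all genes, and DESeq2's Wald test also called 0. Against DMSO, FHL1 differed by −0.33 ± 0.08 (adjusted p = 0.00645) with scFv-58F and 0.16 ± 0.08 (adjusted p = 0.184) with scFv-645, and IFH1 by 0.06 ± 0.08 (adjusted p = 0.570) and 0.48 ± 0.13 (adjusted p = 0.0195). IFH1 passed the 1.5-fold threshold in scFv-645 without scFv-645 replicate 1 (0.62). For scFv-645 against DMSO, where 0 members were called by edgeR, 4 had an unadjusted p below 0.05 and DESeq2's Wald test called 0.

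Ribosomal protein genes went the other way from IFH1, FHL1 and SFP1 in Curcumin cultures. Of 137 ribosomal protein genes, 118 fell and 0 rose with Curcumin (median −1.99, all genes 0.03), and 99 fell and 0 rose with CPTH2 (−0.70, all genes −0.03, 50 in the model of all 5 groups). Many of them are near-identical paralogue pairs, so that reads with several positions make single genes of a pair uncertain. The mean of the list lay at −1.25, −2.10 and −2.75 in Curcumin replicates 1, 2 and 3, at −0.49, −0.75 and −0.86 in CPTH2 cultures, at −0.13, −0.11 and −0.02 in scFv-58F cultures and at 0.03, −0.10 and −0.43 in scFv-645 cultures, as log2 differences from the mean of the DMSO cultures. The number that fell with Curcumin was 77 without Curcumin replicate 2. Genes at large fell in 24.7% with Curcumin and in 16.9% with CPTH2. In scFv-58F cultures 1 of the 137 rose and 3 fell (0 in the model of all 5 groups, 1 falling without DMSO replicate 2), and in scFv-645 cultures 0 were called (2 fell without scFv-645 replicate 1 and 1 rose without replicate 3).

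Ribosome biogenesis genes, activated by Sfp1, split the conditions differently. Of 20 such genes, 8 rose and 0 fell with Curcumin (median 0.51, all genes 0.03), led by the nucleolar protein gene NSR1 (1.25 ± 0.27), whereas 0 rose and 14 fell with CPTH2 (−0.71, all genes −0.03), NSR1 by −1.26 ± 0.11. The list mean was 0.71 and 0.47 in Curcumin replicates 1 and 2 but −0.36 in replicate 3. The number rising with Curcumin was 5, 4 and 3 without DMSO replicate 1, 2 or 3 and 5 without Curcumin replicate 1 or 2. It was 11 without Curcumin replicate 3. Genes at large rose in 27.9% with Curcumin, and fell in 16.9% with CPTH2, 5.43% with scFv-58F and 2.70% with scFv-645. With scFv-58F 7 fell and 0 rose (−0.43, 4 falling in the model of all 5 groups and 3 under glmTreat), led by the assembly factor RRS1 (−1.27 ± 0.08), NOP1 (−1.04 ± 0.07) and NSR1 (−1.03 ± 0.07), while with scFv-645 only RRS1 was called (−0.73 ± 0.09, list median 0.05), a call lost in the model of all 5 groups and under glmTreat, and 2 genes were called without DMSO replicate 3 or scFv-645 replicate 1 or 2. Between the strains 7 of the 20 were lower in scFv-58F and 0 higher (median −0.52, 2.13% of all genes lower), a count that became 0 in the model of all 5 groups and under the test against 1.5-fold. Without a fold threshold 20 of the 20 were lower in scFv-58F than in scFv-645, where 21.5% of all genes passed in either direction. Against DMSO 18 were then lower with scFv-58F (49.0% of all genes passing), and 5 higher and 3 lower with scFv-645 (22.9%).

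**Figure D3:**
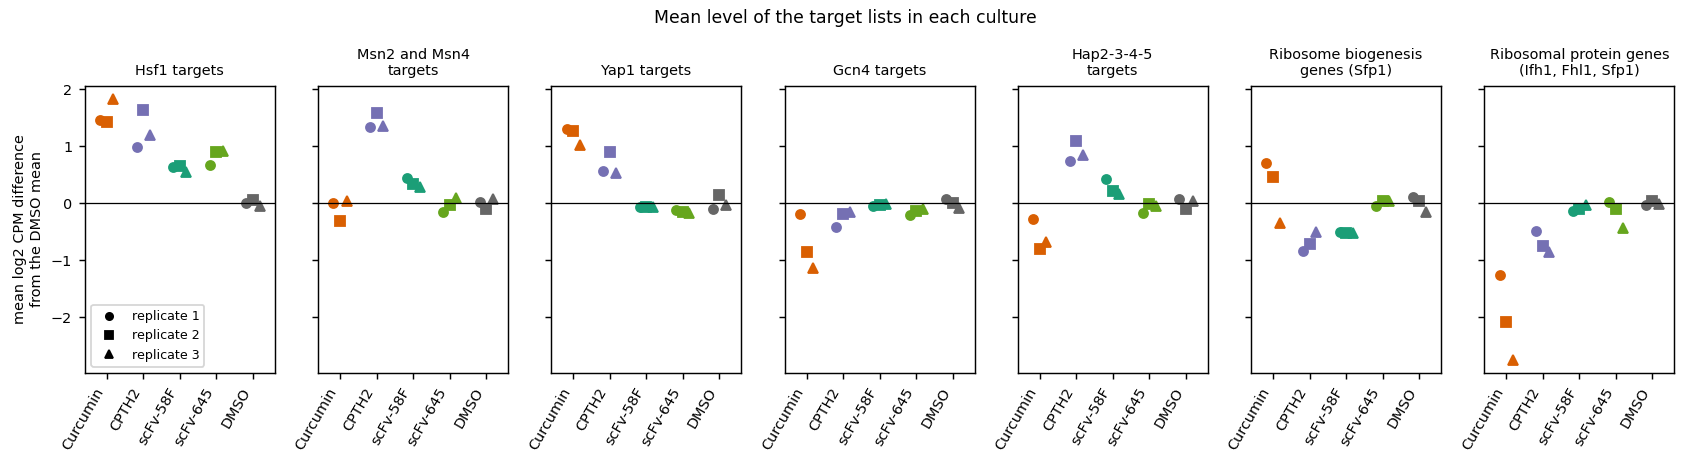
Mean log2 CPM difference from the mean of the DMSO cultures (vertical axis) for 7 lists of target genes in each culture, in columns for Curcumin, CPTH2, scFv-58F, scFv-645 and DMSO, with a symbol per replicate. Ribosomal protein genes lie lowest in Curcumin cultures (−1.25, −2.10 and −2.75), and ribosome biogenesis genes lie below 0 in all CPTH2 and scFv-58F cultures.

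Partners and regulators of the members (33 genes for kinases, exporters and complex subunits) moved about as often with Curcumin as genes at large, of which 27.9% rose and 24.7% fell: 10 rose and 8 fell (median 0.19, all genes 0.03). Of the 33, 4 rose and 1 fell with CPTH2 (0.15, all genes −0.03, 7 rising without CPTH2 replicate 1), where 14.1% of all genes rose and 16.9% fell. With library size alone 15 rose and 4 fell with Curcumin. With Curcumin the largest increases were those of CRF1, a corepressor that competes with Ifh1 for Fhl1 (2.73 ± 0.52), and of RIM15 (2.68 ± 0.53) and SCH9 (2.44 ± 0.18), kinases of nutrient signalling. With CPTH2 the largest changes in either direction were those of protein kinase A subunits. BCY1 rose by 0.88 ± 0.10 and TPK2 by 0.75 ± 0.08, and TPK3 changed by −0.87 ± 0.14. With scFv-58F only HYR1, the peroxide sensor that oxidises Yap1, was called (0.66 ± 0.07), and with scFv-645 only PCL5, a cyclin for the turnover of Gcn4 (−0.86 ± 0.08). Neither call was kept under glmTreat, and that of PCL5 was also lost in the model of all 5 groups.

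Directly compared, 6 of the 10 members were higher with Curcumin than with CPTH2 (IFH1, MSN2, YAP1, FHL1, SKN7 and SFP1) and 0 were lower, where 26.7% of all genes were higher, 23.6% lower and 51.8% had an adjusted p below 0.05. The median over the members was 1.10, against 0.06 for all genes. The doses differed (200 and 400 µM), so the comparison is between these treatments and not between equal amounts of compound.

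**Figure D4:**
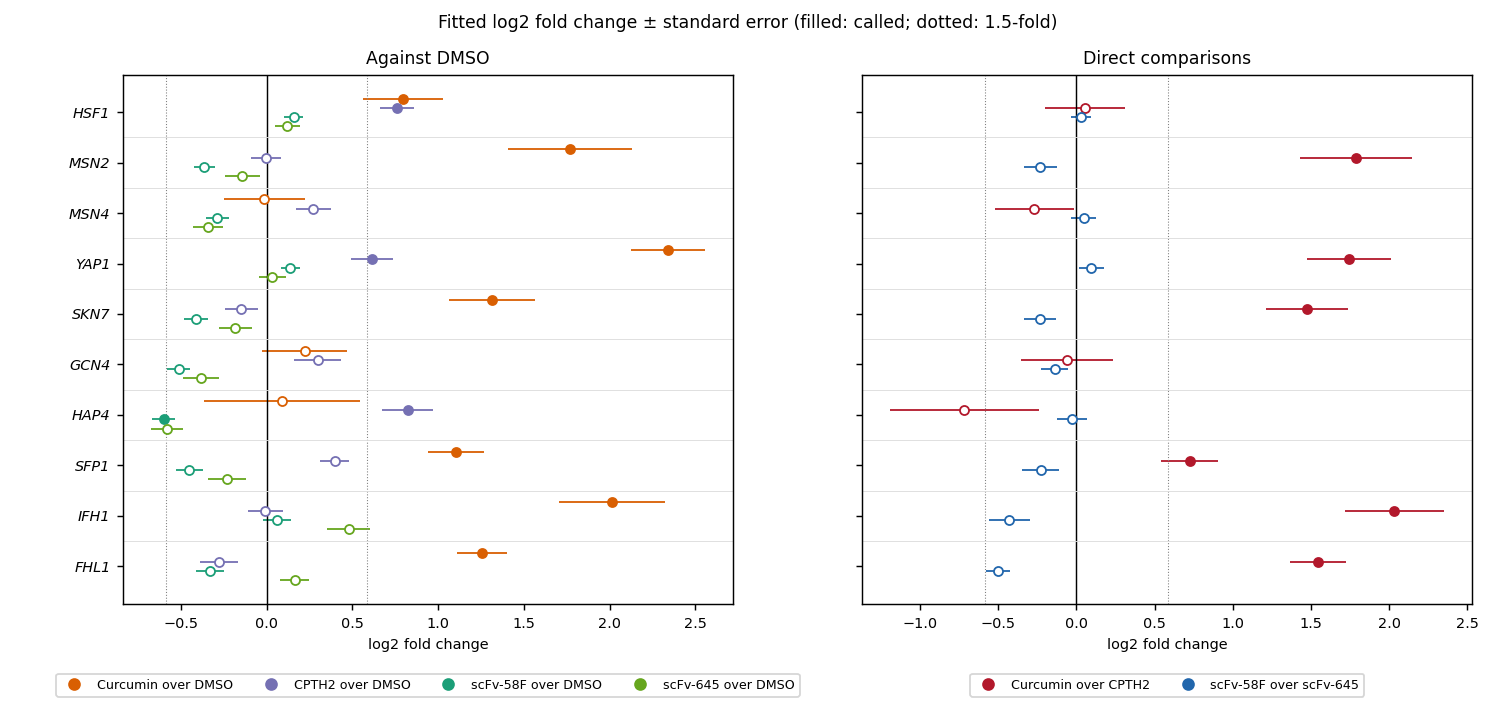
Fitted log2 fold change (horizontal axis) with its standard error for each of the 10 genes, on the left for Curcumin, CPTH2, scFv-58F and scFv-645 over DMSO and on the right for Curcumin over CPTH2 and scFv-58F over scFv-645. Filled points mark calls and dotted lines a 1.5-fold change. Curcumin points lie right of the 1.5-fold line for 7 genes, up to 2.34 for YAP1, and no filled point is found for scFv-645.

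The order of the members by level per kilobase was much alike in the 5 groups. In DMSO cultures GCN4 led with 760 CPM per kilobase (above 95.3% of all genes), followed by HAP4 (212), YAP1 (82.6), HSF1 (50.6), MSN4 (48.3), SKN7 (23.6), MSN2 (18.3), SFP1 (13.1), FHL1 (8.66) and IFH1 (4.49, above 4.69%). CPTH2 and both intrabody strains had the same order. In Curcumin cultures YAP1 was in second place with 422 CPM per kilobase, ahead of HAP4 with 228, and MSN2 (62.9) came before SKN7 (59.3) and MSN4 (48.3). Over the groups, the Curcumin cultures did not overlap the next highest group for MSN2, YAP1, SKN7, SFP1, IFH1 and FHL1, whereas for HSF1, MSN4, GCN4 and HAP4 the highest group, Curcumin or CPTH2, overlapped the other compound or DMSO.

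Among the members, the patterns over the 15 cultures were most alike for MSN4 and GCN4 (root mean square difference of mean-centred log2 CPM 0.17) and for MSN2 and SKN7 (0.19), and least for HAP4 and IFH1 (1.13). The paralogues MSN2 and MSN4 differed by 0.83, YAP1 and SKN7 by 0.44 and IFH1 and FHL1 by 0.32. Over all tested genes with a mean of at least 10 CPM, the nearest to each member were SAP155 and AIM46 for HSF1 (0.10 and 0.11), SLD3 and RSC9 for MSN2 (0.11 and 0.13), JIP3 and RGL1 for MSN4 (0.11 and 0.12), UBX4 and RAD52 for YAP1 (0.13 and 0.14), and MSG5 and RAD6 for SKN7 (0.12 and 0.13). They were RGA1 and YGL140C for GCN4 (0.15 and 0.15), CPA1 and MTH1 for HAP4 (0.15 and 0.22), PUF4 and TRE2 for SFP1 (0.12 and 0.12), PRP22 and AVO1 for IFH1 (0.14 and 0.15), and UTP20 and PAC11 for FHL1 (0.13 and 0.13). These distances describe the 15 cultures, share their libraries and carry no test.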

How the data were processed

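RNA of 15 yeast cultures, described as biological replicates, was sequenced from stranded mRNA libraries in a single lane. The authors trimmed reads with cutadapt, mapped them to sacCer3 with segemehl, and obtained the deposited counts per gene with NGSutils 0.5.9, ignoring strand, which affects overlapping genes. Its option for reads with several positions, which affects paralogues, is read here as dividing such reads between the positions. That reading was not checked. The CPM and RPKM columns that the authors also deposited rescale these counts and were not used. A gene was tested if 3 or more cultures had 10 or more reads on it (6588 of 6692), in R 4.3.3 with edgeR 4.0.16 (TMM, quasi-likelihood test, 1 fit for each pair of groups, Benjamini-Hochberg adjustment), and called at an adjusted p below 0.05 and at least 1.5-fold. Standard errors came from the fold change and its F statistic, and intervals used 4 residual degrees of freedom, so they are wider than the test itself. Groups and replicate numbers came from the labels. Alternatives were DESeq2 1.42.0, other scalings, filters, call rules and models, a replicate block, and leaving out each culture. Their effect on target lists was added after seeing the data. The edgeR fit, also with the replicate block or DESeq2 size factors, and DESeq2 were tried on counts simulated from the scFv-58F and DMSO cultures. The spread of the Curcumin cultures, glmTreat and the model of all 5 groups were not covered. Named genes are the 10 members, the 2 nearest to each, and at most 3 called genes of each list by size of change. Members and lists were chosen with earlier results of these data known. The sequence windows around start codons came from the RefSeq R64 genome, in which 6008 gene identifiers were found.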

Additional observations from a re-analysis of the deposited data

How the results depend on the processing

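With Curcumin, 6 to 7 members were called against DMSO and 5 to 6 against CPTH2 under every alternative. Without a fold threshold 6 members were called with CPTH2, 8 with scFv-58F, 4 with scFv-645 and 2 between the intrabody strains, and against 1.5-fold (glmTreat) 0 with CPTH2 and 0 with scFv-58F. In a model of all 5 groups 0 were called with scFv-58F. Leaving out a culture gave 0 to 1 with scFv-58F and 0 to 1 with scFv-645. The replicate numbers did not pair the cultures (correlations of same-numbered deviations from −0.38 to 0.14, and each of the 6 cultures nearest to its own number only in Curcumin against CPTH2, a hint from the data and not the design). With the replicate block 1 member, HAP4, was called with scFv-645 (−0.59, adjusted p = 0.00455), the HSF1 call with Curcumin was lost (0.76, adjusted p = 0.0517) and HAP4 with Curcumin was −0.11.

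Signs turned only for members that were not called. With library size alone the log2 fold change was 0.34 for MSN4 with Curcumin, 0.0147 for MSN2 and 0.00887 for IFH1 with CPTH2, −3.50e-05 for IFH1 with scFv-58F, −0.0407 for HSF1 and −0.0256 for MSN4 between the intrabody strains, and 0.0495 for MSN4 and 0.26 for GCN4 between the compounds. MSN4 with Curcumin was 0.000449 in the model of all 5 groups and 0.0129 with at least 10 counts in every culture. With CPTH2, DESeq2 gave 0.0113 for MSN2 and 0.00701 for IFH1, and its size factors 0.0113 and 0.00567. Leaving out a culture gave −0.17 to 0.21 for MSN4 and −0.38 to 0.48 for HAP4 with Curcumin, −0.0541 to 0.0784 for MSN2 and −0.0586 to 0.0987 for IFH1 with CPTH2, −0.0436 to 0.0762 for YAP1 with scFv-645, −0.0108 to 0.13 for MSN4 and −0.0956 to 0.0760 for HAP4 between the intrabody strains, and −0.12 to 0.24 for HSF1 and −0.23 to 0.11 for GCN4 between the compounds. The cause was not tested.

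Over all genes, glmTreat called 2196 in place of 3467 with Curcumin, 1003 of 2043 with CPTH2, 94 of 488 with scFv-58F, 22 of 265 with scFv-645, 5 of 184 between the intrabody strains and 2040 of 3316 between the compounds. The model of all 5 groups called 230 with scFv-58F, 50 with scFv-645 and 7 between the intrabody strains, and without a fold threshold 4216 were called with CPTH2, 3231 with scFv-58F, 1508 with scFv-645 and 1415 between the intrabody strains. Without CPTH2 replicate 1, 2189 genes were called between the compounds. With library size alone 2401 were higher and 1007 lower with Curcumin than with CPTH2 (1760 and 1556 with TMM, median of all genes 0.38), 90 rose and 465 fell with scFv-58F (130 and 358 with TMM), and 27 were higher and 205 lower with scFv-58F than with scFv-645 (44 and 140 with TMM, 61 and 115 with DESeq2 size factors). With 3 cultures a group and the spread of the Curcumin cultures, differences near 1.5-fold are decided by single cultures.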
